A study of Mus musculus with 18 samples.

Results

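The transcripts of the ribosomal protein genes were followed through a small RNA sequencing experiment on sorted mouse brain cells. The members were the annotated Ensembl transcripts whose name begins with Rpl or Rps and a digit, or is Rpsa, Rplp0, Rplp1 or Rplp2, provided that at least 1 read was counted in at least 1 library. This gave 800 transcripts of the 86922 features with counts, of which 268 are coding and 532 are of other types. The other types were 186 retained-intron transcripts, 85 processed transcripts, 33 transcripts marked for nonsense-mediated decay, 227 pseudogene transcripts and 1 long intergenic transcript. All 77 genes of the cytosolic subunits that carry such a name were represented by a counted coding transcript, 46 of the large and 31 of the small subunit. The name also caught 13 coding transcripts of ribosomal protein paralogs, 28 of S6 kinases and similarly named partners and 9 of other genes, which were kept apart from the 218 coding transcripts of the subunit genes.

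The libraries came from 10-month-old mice on a C57BL/6 background, either homozygous for the Atxn2-CAG100 knock-in (KIN), in which a long CAG repeat is carried by the endogenous Atxn2 gene, or wild-type (WT) littermates. Each dissociated brain was sorted with magnetic beads, first for CD11b (microglia), then for ACSA-2 (astrocytes), and the neurons were what remained after non-neuronal cells were depleted. There were 6 groups of 3 libraries, labelled as biological replicates. Per the paper, the fractions were isolated one after another from the same brain, so the fractions of a genotype share mice. Per the paper, KIN and WT littermates were compared in pairs of the same sex, and the pairs included both sexes. The labels give neither sex nor pair, and the main fits used neither. The kit ligates adapters to short RNA, so the counts are fragments of the named transcripts rather than whole molecules. The knock-in is constitutive, so every cell of a KIN brain carries it.

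Ribosomal proteins surround the ribosomal RNA of the large (Rpl) and small (Rps) subunit, and their mRNAs begin with a run of pyrimidines, the terminal oligopyrimidine (TOP) motif, through which their translation responds together to growth signals. Many of their genes carry small nucleolar RNAs (snoRNAs) in the introns. These are released from the excised intron and guide 2′-O-methylation (C/D box) or pseudouridylation (H/ACA box) of ribosomal RNA, so a single locus yields a ribosomal protein and RNAs that modify the ribosome.

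Libraries held between 1211118 and 4316748 counts, and the smallest was WT neuron library 1. KIN microglia library 1 had the fewest features with counts, 13941 of a range that reached 32839. Markers of the labelled cell type were present in every fraction, although KIN libraries had less of them. Astrocyte markers summed to 262.5 to 308.2 CPM (counts scaled to a common library total) in the WT and 75.0 to 104.1 in the KIN astrocyte libraries, and microglial markers to 119.5 to 157.8 and 74.7 to 105.4 in the microglial libraries. In KIN astrocytes 5 of 8 astrocyte markers were called lower by gene, under the rule given below. Of all genes and single features, 8.59% were called there in either direction. Neuronal markers were at 50.1 to 64.2 CPM in WT and 28.0 to 46.2 CPM in KIN neurons. Per the paper, more microglia and astrocytes were obtained from KIN than from WT brains, and neuron numbers did not differ. In these bulk fractions, a smaller share of cells of a type and less marker RNA per cell cannot be told apart.

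The members held 3373466 of 55432476 counts (6.09%). Nearly all lay on transcripts of other types, which took 3335229 counts, 2856634 of them on retained-intron and 473240 on processed transcripts. The 268 coding transcripts had only 38237 counts, of which a single one, Rpl32-202, took 30147 (78.8%). The remaining 8090 coding counts were spread thinly, with 67 coding transcripts under 10 counts over all 18 libraries together.

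The counts on the non-coding transcripts followed the snoRNAs that lie within their exons. Comparing the members with the GENCODE vM39 annotation (GRCm39) gave 21 groups in which 29 member transcripts fully contained 25 snoRNAs, and in 14 of these groups the transcripts and the snoRNAs differed by less than 1% in total counts. The C/D box snoRNAs of the 2 clearest cases are printed below 5′ to 3′ with the C box and the D box in capitals. Snord68 lies at chr8:123829777-123829862 on the plus strand, within exon 2 of the 3 exons of Rpl13-202, and Gm25091 at chr5:146771644-146771714 on the plus strand, within exon 2 of the 2 exons of Rpl21-205.
Snord68: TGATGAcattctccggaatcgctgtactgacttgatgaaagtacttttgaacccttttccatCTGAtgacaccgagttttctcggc
Gm25091: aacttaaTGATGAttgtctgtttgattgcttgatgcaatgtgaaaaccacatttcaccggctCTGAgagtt

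Rpl13 encodes a large subunit protein, and its retained-intron transcript Rpl13-202 was the most counted member, with 726826 counts against 723606 for Snord68. The pair differed by at most 0.525% in any library. Rpl21-205, a retained-intron transcript of another large subunit gene, had 165095 counts against 165084 for Gm25091, and the difference stayed between -1 and 2 counts in each of the 18 libraries. The 3 Rps12 transcripts together had 439011 counts against 439168 for Snord100, Gm23130 and Snora33, and Rpl7a-202 had 315442 against 315315. The snoRNA holding transcripts took 93.7% of all counts on member transcripts of other types.

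The 7 other groups were further apart. Rpl12-205 and Rpl12-207, which share Snora65, had 251.21% of its counts when summed, and Rpl10-209 had 233.44% of the counts of Snora70. Rpl27a-202 was at 120.22% of Snora3, Rpl4-203 at 116.62% of Snord16a, Rpl5-204 at 105.63% of Snord21 and Rps2-204 at 94.668% of Snora64. The only coding transcript of the 29, Rpl32-202, was at 101.12% of the H/ACA box Snora7a (30147 against 29812 counts), which covers bases 666 to 805 of its 1368 bases. Reads of Rpl32 mRNA and of Snora7a cannot be told apart there, and the CPM sums of coding transcripts below leave it out. The H/ACA box snoRNAs that the knock-in comparisons turn on are printed here with Snora7a, with the ACA near the end in capitals. Snora7a lies at chr6:115784936-115785075 (minus strand), Gm24523 in Rpl30 at chr15:34440937-34441068 (minus), Snora65 in Rpl12 at chr2:32853303-32853432 (plus), Snora70 in Rpl10 at chrX:73316090-73316226 (plus) and Gm26205 in Rpl6 at chr5:121343073-121343206 (plus). Gm24044, at chr9:119957846-119958001 (plus), is only partly covered by the last exon of Rpsa-203.
Snora7a: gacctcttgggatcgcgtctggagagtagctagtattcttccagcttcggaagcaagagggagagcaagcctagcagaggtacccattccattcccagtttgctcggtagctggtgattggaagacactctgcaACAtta
Gm24523: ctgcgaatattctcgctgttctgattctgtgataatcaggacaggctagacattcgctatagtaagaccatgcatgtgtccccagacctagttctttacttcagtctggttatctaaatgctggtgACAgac
Snora65: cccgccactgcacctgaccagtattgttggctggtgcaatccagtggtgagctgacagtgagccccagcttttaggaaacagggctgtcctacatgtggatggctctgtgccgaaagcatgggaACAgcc
Snora70: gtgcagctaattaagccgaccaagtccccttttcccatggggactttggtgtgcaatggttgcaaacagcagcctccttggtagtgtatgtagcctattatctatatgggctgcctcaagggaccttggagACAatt
Gm26205: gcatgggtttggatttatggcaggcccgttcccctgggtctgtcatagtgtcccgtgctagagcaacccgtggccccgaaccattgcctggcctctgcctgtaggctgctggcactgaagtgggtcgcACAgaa
Gm24044: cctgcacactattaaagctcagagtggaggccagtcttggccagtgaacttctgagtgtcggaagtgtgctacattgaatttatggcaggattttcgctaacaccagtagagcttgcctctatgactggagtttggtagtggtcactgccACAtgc

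**Figure D1:**
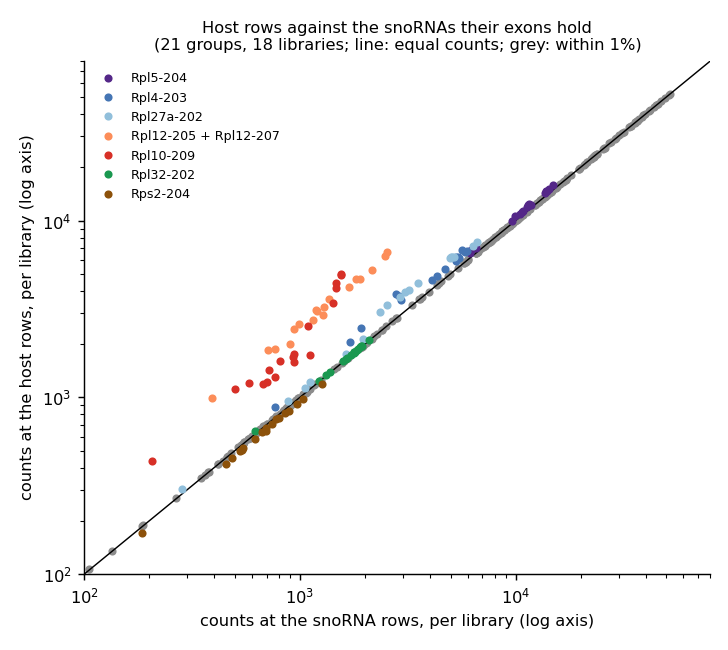
Counts at member transcripts that contain snoRNAs (vertical, log axis) against counts at those snoRNAs (horizontal, log axis), 1 point per group and library for 21 groups and 18 libraries, with the line of equal counts. The 14 grey groups lie on the line within 1% in total, and the Rpl12 and Rpl10 transcripts lie furthest above it.

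Within the loci of 30 subunit genes, 59 annotated snoRNAs were found and 57 of them were counted, with 6313253 counts in all. Among the most counted were Snord68 in Rpl13 (723606), Snord83b in Rpl3 (401205), Gm23344 in Rpl4 (355762), Snord32a in Rpl13a (335356) and Gm26202 in Rpl17 (302199). Snord100 in Rps12 (262516) and Gm24134 in Rpl7a (251163) were also among the 10 most counted.

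Coding transcripts gave a different picture, with the highest levels in the neuronal fraction. Per the paper, that fraction gave far fewer cells and less RNA than the glial fractions. The part of this input difference in the levels was not tested. The summed coding transcripts of the 77 subunit genes without Rpl32-202 stood at 43.57, 27.63 and 36.13 CPM in the 3 WT astrocyte libraries. They stood at 75.16, 57.00 and 133.6 CPM in WT microglia and at 642.4, 247.9 and 388.8 CPM in WT neurons. None of the 3 groups overlapped, and the neuronal libraries also differed most among themselves.

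The means were 35.8 ± 7.97 CPM in WT astrocytes, 88.6 ± 40.0 in WT microglia and 426.4 ± 199.9 in WT neurons (SD, n = 3). The neuronal mean was 11.9 times the astrocyte and 4.81 times the microglial mean, and the microglial mean was 2.48 times that of astrocytes. Over the same libraries the sum of all protein-coding transcripts differed little, with ratios of 1.16, 1.07 and 1.08. That sum, unlike the ribosomal one, includes Rpl32-202 and was not cleared of other coding transcripts that may hold snoRNAs. The 227 pseudogene transcripts, processed copies of ribosomal protein mRNAs, followed the coding ones at 8.51, 29.0 and 95.2 CPM. They share sequence with the coding transcripts, so their levels are not an independent observation. Rpl32-202 did not follow the other coding transcripts, with 493 ± 30.7, 545 ± 66.7 and 691 ± 199 CPM.

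**Figure D2:**
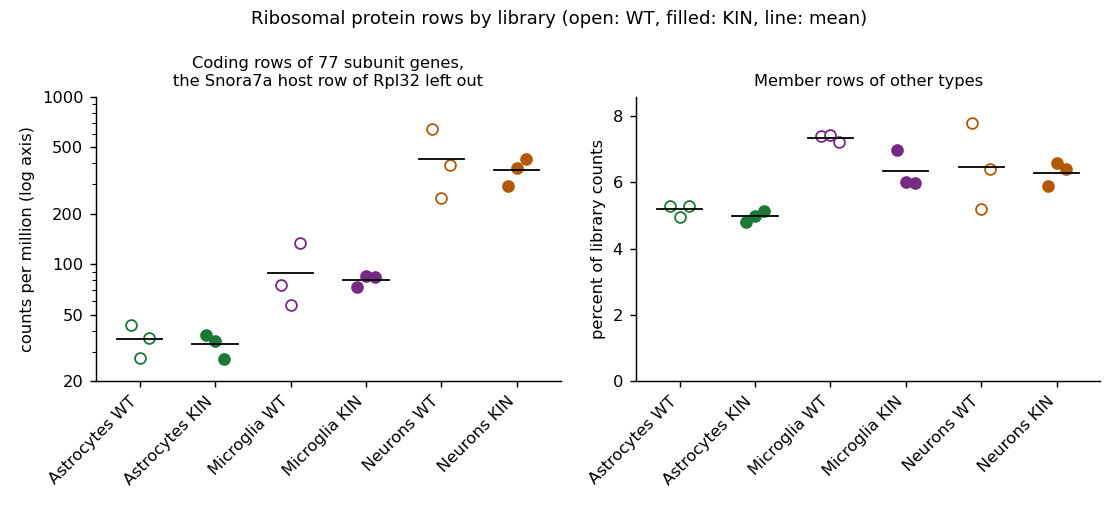
Summed level of the coding transcripts of the 77 subunit genes without Rpl32-202 (left, CPM on a log axis) and percent of library counts on member transcripts of other types (right), by group, with open WT points, filled KIN points and the mean as a line. Coding levels run from 27.1 CPM in a KIN astrocyte library to 642.4 CPM in a WT neuron library, whereas the share of the other types reaches at most 7.80% and overlaps between the neuronal and the glial libraries.

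Each of the 77 subunit genes had a higher mean in WT neurons than in WT astrocytes, and for 67 every neuronal library exceeded every astrocyte library, which held for 8.69% of the 14506 coding genes with counts. Against WT microglia, 76 genes had a higher neuronal mean and 52 did not overlap, against 10.3% of coding genes. The exception was Rpl28, at 1.44, 0.576 and 6.54 CPM in WT microglia and 0.826, 1.53 and 1.96 CPM in WT neurons. Microglia had the higher mean than astrocytes for 64 genes, of which 16 did not overlap, against 4.59% of coding genes. Leaving out any single WT neuron library left the neuronal mean higher than that of astrocytes for 76 or 77 genes, and higher than that of microglia for 71 to 76.

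Of the 77 genes, 51 had more than 3 counts over the WT astrocyte libraries, and their neuron to astrocyte ratios ran from 1.42 for Rpl32, whose reads cannot be told from those of Snora7a, to 40.8 for Rpl38, with a median of 9.17. The large subunit list stood at 21.4, 48.7 and 231 CPM in WT astrocytes, microglia and neurons, and the small subunit list at 14.4, 39.9 and 195 CPM. The acidic stalk and its base, which recruit translation factors, stood at 2.13, 7.27 and 25.6 CPM, and the 5S particle of Rpl5 and Rpl11 at 0.291, 1.77 and 7.85 CPM. Genes around the peptide exit tunnel stood at 5.47, 9.25 and 47.2 CPM, and those mutated in Diamond-Blackfan anaemia at 11.6, 26.9 and 128.8 CPM.

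Individual genes were few reads deep in glia. Rps24, a small subunit protein, was at 0.954, 0.502 and 0 CPM in WT astrocytes, 1.73, 0.864 and 2.73 in WT microglia, and 33.0, 6.13 and 18.3 in WT neurons. Rpl38, a large subunit protein known for selective translation of Hox mRNAs, was at 0.318, 1.01 and 0 CPM in astrocytes, 0.864, 2.02 and 0.818 in microglia, and 31.4, 8.18 and 14.4 in neurons. In both genes the lowest neuronal library was above the highest glial one.

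Rplp1, a protein of the acidic stalk, was at 1.27, 0.754 and 0.911 CPM in WT astrocytes, at 2.88, 2.02 and 2.45 in WT microglia, and at 15.7, 7.16 and 10.5 in WT neurons. Rps29, a small protein of the small subunit, was at 0.954, 1.01 and 0.607, at 2.02, 4.32 and 2.18, and at 19.0, 8.69 and 10.5 CPM in the same order. Both genes had 3 levels without overlap. Rpl4, which lines the exit tunnel, was at 0.636, 1.01 and 1.21 CPM in astrocytes, 1.44, 0.576 and 1.36 in microglia, and 9.08, 6.13 and 6.55 in neurons, so that its glial levels overlapped while its neuronal ones stood apart.

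Per length of the annotated transcripts and with Rpl32 left out, the highest levels in WT neurons were those of Rpl38 at 45.7 ± 30.6 CPM per kb, Rps29 at 32.6 ± 14.1, Rps27rt at 27.6 ± 11.6, Rps27 at 24.0 ± 8.62, Rps24 at 23.8 ± 16.5, Rps14 at 23.5 ± 14.8, Rplp1 at 20.3 ± 7.86 and Rpl41 at 19.6 ± 8.25 (SD, n = 3). The lowest among the subunit genes, named after their values were seen, were Rpl37 at 0.180, Rpl28 at 0.506, Rps20 at 0.683, Rpl12 at 0.713 and Rps16 at 0.733 CPM per kb. The ranges of mean ± SD of these highest genes overlap, so their order is not resolved.

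**Figure D3:**
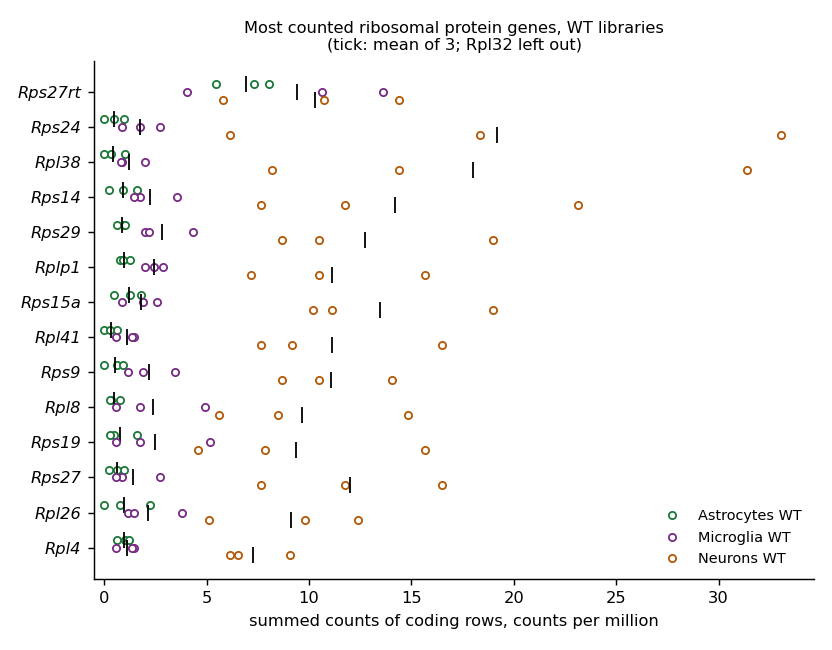
Summed CPM of the coding transcripts of the 14 most counted ribosomal protein genes other than Rpl32 in the 9 WT libraries (1 point per library, tick for the mean of 3). In all but Rps27rt the neuronal mean lies well above both glial means, with Rps24 from 6.13 to 33.0 CPM in neurons.

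Levels were fitted by gene with edgeR's quasi-likelihood test, with Benjamini-Hochberg adjustment over all features tested. A call needed an adjusted p of at most 0.05 and at least a 2-fold change. In this fit the coding transcripts of a gene were summed and all other features stayed single, so its background covers both. In WT neurons against WT astrocytes 43 of the 45 subunit genes tested rose and none fell. The risers were 24 of 26 of the large and 19 of 19 of the small subunit. The background was 11% of 6519 genes and single features called higher. A gene can pass the filter on low counts through the group where it is high alone, so these counts describe the genes tested and not all 77. The median log2 fold change (log2FC) was 3.33 over the 45 genes and -0.31 over all genes and single features tested. By list, 3 of 3 stalk genes tested, 6 of 6 of the exit tunnel and 13 of 13 of the Diamond-Blackfan anaemia genes rose. Rpl32 (log2FC 0.36) was not called.

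The strongest rises with more than 3 astrocyte counts were those of Rps24 (log2FC 5.02, SE 0.87, adjusted p = 0.0034) and Rpl38 (log2FC 4.94, SE 0.85, adjusted p = 0.00337). Rps9, another small subunit protein, rose by a log2FC of 4.24 (adjusted p = 0.0027), Rps27 by 4.10 (adjusted p = 0.00156) and Rpl8 by 4.03 (adjusted p = 0.0027). Stalk genes rose together, Rplp2 with a log2FC of 3.79 (adjusted p = 0.0046), Rplp1 with 3.30 (adjusted p = 0.00244) and Rplp0, which anchors the other two, with 3.00 (adjusted p = 0.0065). Rps19, the gene most often mutated in Diamond-Blackfan anaemia, rose by 3.35 (SE 0.71, adjusted p = 0.00824), and Rpl4 by 2.70 (SE 0.52, adjusted p = 0.00558). Several called genes had 1 to 3 astrocyte counts, so their fitted values are imprecise. The ratio was 55.5 for Rpl5 (95% counting interval 9.08 to 2.28e+03) and 36.2 for Rpl41 (11.7 to 182), intervals that cover counting error only.

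Against WT microglia, where 12.6% of 5730 genes and single features were called higher, 29 of 50 subunit genes tested rose. These were 16 of 28 of the large and 13 of 22 of the small subunit, and none fell. Rpl38 (log2FC 3.52, SE 0.69, adjusted p = 0.00474), Rps24 (log2FC 3.15, adjusted p = 0.00772), Rpl41 (log2FC 3.00, adjusted p = 0.00399), Rps27 (log2FC 2.82, adjusted p = 0.0084) and Rpl4 (log2FC 2.39, adjusted p = 0.00944) were among them. Rplp1 (log2FC 1.90, adjusted p = 0.0185) and Rplp0 (log2FC 1.77, adjusted p = 0.0326) rose, while Rplp2 had a log2FC of 0.98 with an adjusted p of 0.330. By list, 2 of 3 stalk genes tested, 4 of 6 exit tunnel genes and 8 of 15 Diamond-Blackfan anaemia genes rose. Rpl28 had a log2FC of -1.13 and was not called. There were 9, 18 and 18 calls without WT microglia library 1, 2 and 3, 16 and 17 without WT neuron library 1 and 3, and 9 without the filter on low counts.

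WT microglia against WT astrocytes gave 12 of 33 subunit genes higher and none lower, against 13.8% of 7026 genes and single features. Among them were Rps27a, Rplp2 (log2FC 2.97), Rpl28 (2.69), Rps4x (2.49), Rpl8 (2.45), Rps9 (2.31), Rpl10 (2.27), Rpl7 (2.06), Rpl18 (2.00), Rps29 (1.94) and Rplp1 (1.54). The name also caught Rps6ka1, a growth factor activated S6 kinase, which rose by a log2FC of 2.98 (adjusted p = 0.0275) on 2 astrocyte and 16 microglial counts. Leaving out WT astrocyte library 1, 2 or 3 gave 4, 7 and 3 called genes in place of 13, and leaving out WT microglia library 1 or 3 gave 6 and 2. DESeq2 called 2, library totals in place of TMM factors 4, and the fit without a filter 3.

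By transcript, 38 of 43 coding members tested rose in WT neurons against WT astrocytes and none fell (background 10.2% higher and 18.5% lower of 5916). Most of these transcripts passed the filter through the neuronal libraries, where they are high, so the count and the median describe the transcripts tested and give no support for a rise over all members. The median log2FC was 3.52, or 3.38 with the 5 transcripts without astrocyte counts set to their bound, against -0.50 over all features. Among the latter, Rps24-210 was at least 23.7-fold higher and Rps25-204 at least 11.1-fold higher, from a floor of 3 counts over the astrocyte group. Against WT microglia, 22 of 50 coding transcripts rose and none fell (background 13.5% higher and 14.5% lower of 5166, median log2FC 1.91 against -0.15). Between the glial fractions 2 of 13 rose in microglia, Rps29-201 (log2FC 1.82, adjusted p = 0.0403) and Rpl7-201 (log2FC 1.73, adjusted p = 0.0472), with a background of 12.2% of 6397, and DESeq2 called neither. Neurons against astrocytes gave 10 calls without WT neuron library 1 and 22 without library 3. Against microglia there were 2 and 8 calls without these, 3, 11 and 9 without WT microglia library 1, 2 and 3, and 4 without the filter on low counts.

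Member transcripts of other types were set apart by whether they hold a snoRNA. Over all features, 10.2% were called higher and 18.5% lower in WT neurons against WT astrocytes. Of 13 tested without a snoRNA, 9 rose and none fell in this comparison, for example the pseudogene transcript Rps18-ps4-201 (log2FC 4.31). Such transcripts can pass the filter through the neuronal libraries alone, as Rps23-ps1-201 did without astrocyte counts, so the 9 describe the transcripts tested. Of 35 that overlap a counted snoRNA by at least 20 bases 1 rose, Rps3-204 (log2FC 1.05, adjusted p = 0.0109), and 3 fell, among them Rps20-202 (log2FC -1.84, adjusted p = 0.0198) and Rpsa-203 (log2FC -1.46, adjusted p = 0.0227). The 3 that fell are a smaller share than the 18.5% of all features. Against WT microglia, 13.5% of all features were called higher and 14.5% lower. Here 7 of 17 without a snoRNA rose and 2 fell, while of the 35 with one none rose and 11 fell. Rps20-202 shows the depth behind such a change, at 2887, 2586 and 2726 CPM in WT astrocytes, 2951, 2912 and 3065 in WT microglia and 311, 1003 and 1308 in WT neurons. Its neuronal libraries lay below all glial ones, while coding transcripts of the subunit genes went the other way.

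Rps20-202 also fell against microglia (log2FC -1.96), as did Rpl27a-202 (-1.89), Rpl27a-204 (-1.85), Rpl10-209 (-1.44), Rpsa-203 (-1.43) and Rps12-207 (-1.41). Of 35 tested transcripts that overlap a snoRNA, 3 were called higher in WT microglia than in WT astrocytes, a share below the 12.2% of all features. Rpl10-209 was at 390.5, 328 and 362 CPM in WT astrocytes and 1427, 1273 and 1342 CPM in WT microglia, without overlap (log2FC 2.02, adjusted p = 2.265e-05). Rps3-204 was another (log2FC 1.43, adjusted p = 0.000261).

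Genes that share the TOP motif or the translation machinery without the name were examined as groups fitted in the same way. The background was 11% of genes and single features called higher against astrocytes and 12.6% against microglia. Of 13 tested genes of the list of other ribosomal proteins and TOP mRNAs, 8 rose in WT neurons against WT astrocytes (Eef1a1, Eef1b2, Eef2, Fau, Hnrnpa1, Npm1, Pabpc1 and Tpt1), with a log2FC of 2.26 for the elongation factor Eef1a1 and 4.06 for Tpt1. Against WT microglia 3 of 13 rose, Eef2, Hnrnpa1 and Npm1. Of 13 initiation and elongation factors 2 rose against astrocytes, Eif3a (log2FC 2.73) and Eif5a (log2FC 2.21), and 2 of 13 against microglia, Eif2s3x and Eif3a, shares near the background. Of the 78 counted mitochondrial ribosomal protein genes, 2 were deep enough to test in WT neurons against WT astrocytes, 3 against WT microglia and 3 in WT microglia against WT astrocytes, and none was called. Their summed level was 97.1, 81.9 and 119.5 CPM in WT astrocytes, microglia and neurons. Paralogs of ribosomal proteins stood at 8.16, 10.7 and 14.9 CPM and the S6 kinases and partners at 2.42, 4.76 and 3.61 CPM. No gene of any of these lists was called in KIN against WT, where 8.59%, 5.31% and 0% of genes and single features were called in astrocytes, microglia and neurons. The elongation factor Eef1a2 was below the call with large fitted values, a log2FC of -2.79 in astrocytes (edgeR adjusted p = 0.0579) and -3.53 in microglia (adjusted p = 0.133).

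Coding transcripts of ribosomal protein genes share sequence among themselves and with their processed copies. The 218 coding transcripts of the subunit genes had a median of 51.6% of their 30-base stretches in common with another annotated transcript of a different gene, from 1.6% to 97%, so the split of reads between genes and copies is uncertain. Rps27rt-201, a retrocopy of Rps27, is the clearest case, since 345 of its 374 bases match Rps27-201. It was the most counted gene after Rpl32 and the only one of the 14 shown that did not follow the others, with 6.94, 9.44 and 10.31 CPM in WT astrocytes, microglia and neurons (neurons against astrocytes log2FC 0.42, SE 0.45, adjusted p = 0.483). Its parent Rps27 went from 0.604 through 1.39 to 11.99 CPM. Counting used neither strand nor mapping quality, so antisense reads are included.

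A stretch of the pyrimidine run was searched around the transcription start. The RefSeq promoter windows (GRCm38.p6) were available for 57 of the 77 subunit genes, and the letters CTTTC occurred on the sense strand within 20 bases before to 30 after an annotated start in 21 of them (36.8%), against 2069 of 27025 genes (7.66%). The reverse complement GAAAG occurred in 5 (8.77%) against 7.3% of genes. Examples, chosen because they hold the letters, are printed as the 15 bases before and 15 after the start with CTTTC in capitals, to show how the pyrimidines fall at the start itself.
Rpl15: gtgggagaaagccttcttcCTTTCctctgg
Rpl28: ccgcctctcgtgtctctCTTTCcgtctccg
Rpl38: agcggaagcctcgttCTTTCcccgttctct
Rplp2: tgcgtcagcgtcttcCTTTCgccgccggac
Rps10: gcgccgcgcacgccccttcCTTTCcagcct
Rps27: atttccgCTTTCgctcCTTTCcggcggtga

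The neuronal fraction also carried RNA of other cells. Choroid plexus and ependymal markers, among them Ttr, summed to 382 to 911 CPM in the WT and 534.6 to 929 CPM in the KIN neuron libraries, against 14.6 to 41.3 in WT astrocytes and 12.5 to 14.4 in WT microglia. Erythroid markers were at 132.9, 40.9 and 74.0 CPM in the WT neuron libraries and 15.7 to 42.4 in the KIN ones, against at most 0.636 CPM in WT astrocytes and 1.15 in WT microglia. Both choroid plexus and ependymal markers and all 4 erythroid markers tested were called higher in WT neurons than in either WT glial fraction. The order of the WT neuron libraries by erythroid markers is that of their ribosomal protein sums, while the KIN neuron library with the highest ribosomal protein sum (424.7 CPM) had the lowest erythroid level (15.7 CPM). Choroid plexus and ependymal markers were highest (911 CPM) in the WT neuron library with the lowest ribosomal protein sum, and in KIN neurons their order was that of the sums. Neuronal markers in WT astrocytes (11.6 to 31.6 CPM) and microglia (3.17 to 21.5 CPM) were lower than in WT neurons (50.1 to 64.2 CPM). Of those tested, 3 of 8 were called higher in WT neurons than in WT astrocytes, and 3 of 6 than in WT microglia. The background was 11% and 12.6% of genes and single features. Oligodendrocyte markers ran from 8.26 to 65.4 CPM in WT neurons, highest in library 2. The part of the other cells in the higher coding levels was not tested.

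**Figure D4:**
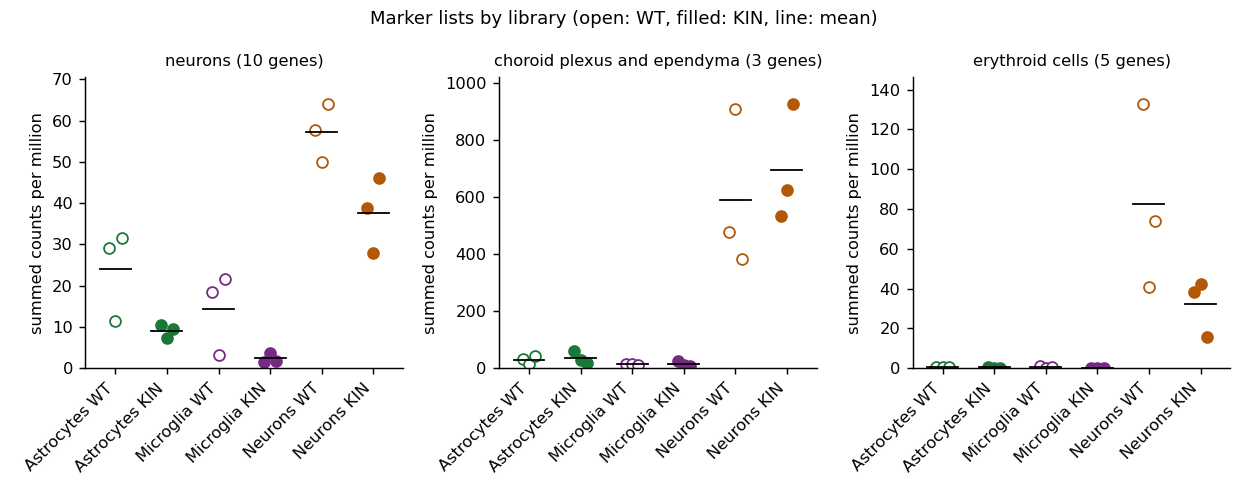
Summed CPM of neuronal, choroid plexus and ependymal, and erythroid marker genes by library (open WT, filled KIN, line for the mean of 3). The last 2 lists are high in the neuronal fraction of both genotypes, and the erythroid list is highest at 132.9 CPM in WT neuron library 1.

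The knock-in was compared with WT within each fraction to ask whether ribosomal protein transcripts change with expanded ataxin-2, a cytoplasmic RNA-binding protein. Coding sums were 37.80, 34.56 and 27.14 CPM in KIN astrocytes, 72.74, 85.25 and 84.26 in KIN microglia and 291, 376.1 and 424.7 in KIN neurons. Each group overlapped its WT counterpart, and the ratios of the means were 0.927, 0.912 and 0.854.

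No member was called in any fraction by edgeR, and DESeq2 likewise called none. In astrocytes 5 coding and 38 other transcripts were tested, of which 1 and 11 had an unadjusted p under 0.05. So did 1955 of all 5694 features, and 8.18% of features were called (8.59% of 6194 in the fit by gene). In microglia 20 and 44 were tested, and 2 and 4 had an unadjusted p under 0.05, against 1250 of all 4940 features. There 4.35% of features were called (5.31% of 5350 in the fit by gene). In neurons 88 and 78 were tested, and 0 and 2 had an unadjusted p under 0.05, against 197 of all 4535 features. There 0% of features were called (0% of 5070 in the fit by gene). The median log2FC of the coding members tested was 0.41, 0.18 and -0.22 in astrocytes, microglia and neurons, against -0.19, -0.11 and -0.11 over all features. KIN means were higher for 34 of 77 subunit genes in astrocytes, 29 of 76 in microglia and 23 of 77 in neurons, against 25.9%, 21.5% and 46.6% of all coding genes.

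The lowest p-values among coding transcripts belonged to Rps29-201 in astrocytes (log2FC 1.20, adjusted p = 0.132) and to Rplp1-201 (log2FC 0.93) and Rpl39-201 (log2FC 1.15) in microglia (adjusted p = 0.176 for both). The Rps29 gene was at 0.954, 1.01 and 0.607 CPM in WT and 1.45, 1.95 and 2.15 CPM in KIN astrocytes, without overlap but on few reads. Rplp1 was at 2.88, 2.02 and 2.45 CPM in WT and 3.18, 4.40 and 4.42 CPM in KIN microglia. At this depth differences of this size could not be told from the spread between libraries.

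Transcripts that touch H/ACA box snoRNAs reached an adjusted p of at most 0.05 with changes under 2-fold. In astrocytes 4 were higher in KIN (4.88% of features were higher by this rule). Rpl10-209 was at 390.5, 328 and 362 CPM in WT and 492, 439 and 465 CPM in KIN libraries (log2FC 0.50, SE 0.10, adjusted p = 0.0173). Rpl30-203 was at 507, 475 and 474 CPM in WT and 592, 548 and 577 CPM in KIN (log2FC 0.37, SE 0.09, adjusted p = 0.0378). In both the KIN libraries lay above all WT libraries. Of 11 alternative settings, the adjusted p stayed at most 0.05 in 5 for Rpl10-209 and in 3 each for Rpl30-203, Rpsa-203 and Rpl12-207, and its highest values were 0.13 to 0.226.

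Rpsa-203 went from 519, 512 and 458 CPM to 646, 570 and 698 CPM (log2FC 0.49, adjusted p = 0.0270), and Rpl12-207 from 402, 389 and 364 CPM to 466, 458 and 489 CPM (log2FC 0.42, adjusted p = 0.0344), again without overlap. For the snoRNAs printed above, the log2FC was 0.56 for Snora70 (adjusted p = 0.0213), 0.49 for Gm24044 (adjusted p = 0.0267), 0.37 for Gm24523 (adjusted p = 0.0378) and 0.38 for Snora65 (adjusted p = 0.0505). Transcript and snoRNA overlap, so these are not independent measurements.

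In microglia Rpl6-207, a retained-intron transcript around Gm26205, was lower in KIN at 146, 207 and 200.4 CPM against 430, 363 and 455 CPM in WT (log2FC -0.95, SE 0.19, adjusted p = 0.0276, with 3.02% of features lower by this rule). Gm26205 had the same log2FC of -0.95. The adjusted p of Rpl6-207 was at most 0.05 in 5 of 11 alternatives and reached 0.136. The difference of the knock-in effect between microglia and astrocytes was called for no member and for 0.312% of 7053 features by edgeR, and for no member by DESeq2. Its unadjusted p was under 0.05 for Rps3-204 (difference in log2FC -1.03, adjusted p = 0.192), Rpl6-207 (-0.83, adjusted p = 0.206) and Rpl10-209 (-0.85, adjusted p = 0.348).

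**Figure D5:**
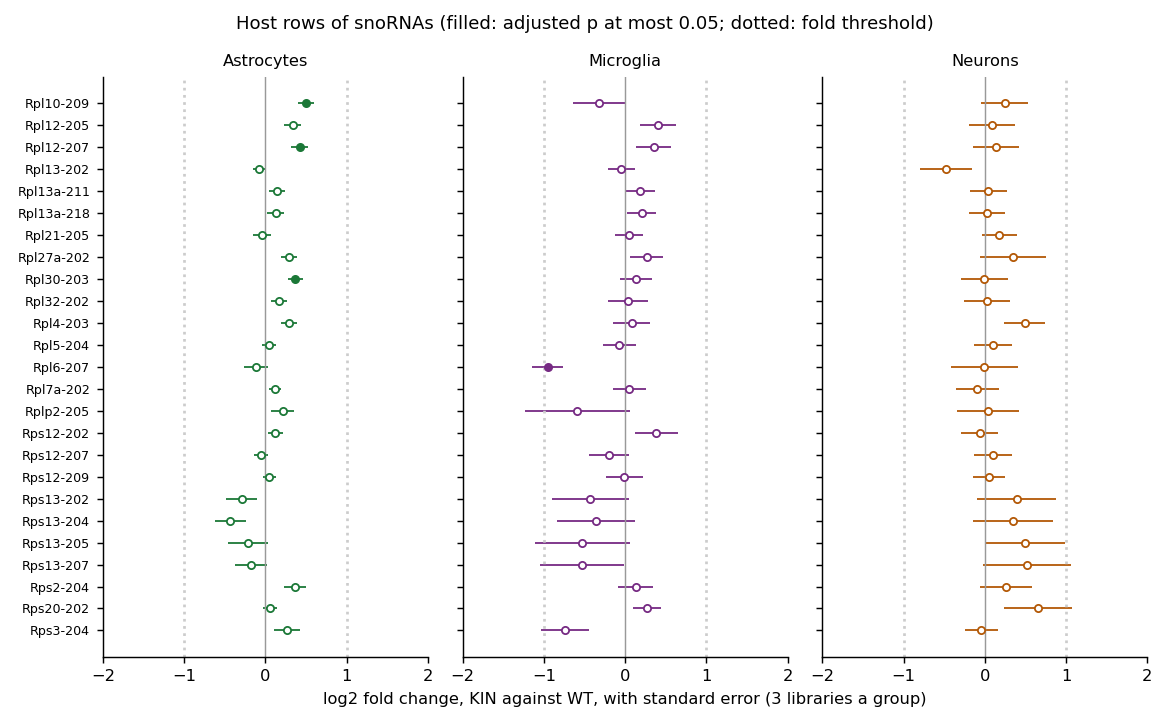
Log2 fold change of KIN against WT with its standard error for the member transcripts named on the vertical axis, which contain snoRNAs, in astrocytes, microglia and neurons (3 libraries a group, dotted lines at a 2-fold change, filled points with adjusted p of at most 0.05). The filled points are Rpl10-209, Rpl12-207 and Rpl30-203 in astrocytes and Rpl6-207 in microglia, and none reaches a dotted line. Rpsa-203 is not drawn because it contains its snoRNA only in part.

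The share of library counts on member transcripts of other types was 7.39%, 7.44% and 7.20% in WT microglia and 6.98%, 6.02% and 5.98% in KIN microglia, without overlap, but with 3 against 3 libraries the exact two-sided permutation test cannot go below 0.1, the value found here (adjusted p = 0.45 over 9 tests). In astrocytes the coding members took 1.53% ± 0.0851 of protein-coding counts in WT and 1.825% ± 0.112 in KIN (SD, n = 3, exact permutation p = 0.1, adjusted p = 0.45). Most of these counts were on Rpl32-202, and without it the share was 0.161%, 0.117% and 0.138% in WT and 0.176%, 0.153% and 0.132% in KIN, which overlap. In neurons the share of the other types was 7.80%, 5.20% and 6.39% in WT and 5.875%, 6.58% and 6.41% in KIN, which overlap (exact permutation p = 0.9, n = 3 per group). The remaining shares gave exact permutation p-values between 0.3 and 0.8.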

How the data were processed

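The deposited table holds raw read counts for each annotated feature in 18 libraries. Per the labels and methods, the authors prepared libraries with a small RNA kit with molecular identifiers, trimmed with cutadapt 4.6, mapped to mm39 with Bowtie2 2.4.4 in successive local rounds per RNA class and counted with HTSeq 2.0.2 in union mode without strand. How reads came to be counted at both a snoRNA and its host transcript is not given in the sources used here. Another 36 per-library columns of normalised values, the group means and the authors' fold changes and p-values were not used.

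Counts were fitted with edgeR 4.0.16 (R 4.3.3, TMM factors, quasi-likelihood) for 6 libraries at a time, 12 for the glial difference, after a filter of 5 or more counts in 2 or more libraries. P-values were adjusted over all features tested, and calls combined an adjusted p up to 0.05 with an absolute log2FC of 1 or more. By gene, the coding transcripts were summed first and all other features stayed single. CPM values use library totals. Shares were compared by exact permutation in Python 3.11.15 (scipy 1.17.1). DESeq2 1.42.0, library totals, no filter, a single fit, a replicate block and leaving out libraries were alternatives. The scripts were tested on simulated data. Library totals between 1211118 and 4316748 set the precision, so most coding genes rest on few glial reads.

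The members and lists were chosen with earlier results of these data known. Named were the most counted members and snoRNAs, called members and the most abundant genes of a list. Rpl6-207, Rpl12-207, Rpl30-203, Rpsa-203 and Eef1a2 in KIN were singled out after their values were seen. So were genes that were exceptions to a count, genes with the lowest level per length and coding transcripts with the lowest p-values. Results for a few members are not reported here. The labels do not say that a replicate number marks a brain. Same-numbered libraries correlated in their deviations from the group means at 0.109 to 0.312 in WT astrocytes and neurons, above 0.1 in each pair. In every other comparison at least 1 same-numbered pair was below 0.1 (lowest -0.291). Between WT astrocytes and neurons, libraries of different number ran from -0.246 to 0.156. The correlations therefore do not show that a number marks a brain.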

Additional observations from a re-analysis of the deposited data

How the results depend on the processing

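Of the counts, medians and shares recomputed under each alternative, 268 values kept their direction and size, 46 moved and 12 reversed. The cause was not tested. The alternatives on host transcripts, on Rpl32-202 and on gene counts between WT fractions were chosen after seeing the data. The astrocyte coding median was 0.62 in a single fit, and 1 other transcript was called in microglia with library totals (Rpl6-207). Without a filter, WT neurons against astrocytes had a coding median of 2.29, and against microglia 4 transcripts, 9 genes and a median of 1.44. WT microglia against astrocytes had 0 coding transcripts by DESeq2, 1 with library totals and 1 without a filter, and 2, 4 and 3 genes. Without Rpl32-202 the KIN minus WT coding share reversed in astrocytes (-0.0002362 percentage points of the library) and in neurons (-0.083 of protein-coding counts), and without host transcripts the neuronal share of other types reversed (0.0623).

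Leaving out single libraries gave KIN against WT coding medians of 0.11 to 0.68 in astrocytes, 0.13 to 0.48 in microglia and -0.50 to 0.26 in neurons, 0 to 5 other transcripts (5 without KIN microglia library 1) and 0 to 1 genes in microglia. Between WT fractions it gave medians of 0.98 to 1.62, 3.01 to 4.05 and 1.41 to 2.30, 0 to 2, 10 to 34 and 2 to 24 coding transcripts, and 2 to 12, 30 to 37 and 9 to 32 genes for microglia against astrocytes, neurons against astrocytes and neurons against microglia. Coding shares ranged from -0.000773 to 0.00309 (astrocytes) and -0.0180 to 0.00437 (neurons) of the library, and from -0.441 to 0.0892 (microglia) and -0.304 to 0.404 (neurons) of protein-coding counts, and the neuronal share of other types from -0.804 to 0.4995.

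With the replicate number as a block, WT microglia against astrocytes had 1 coding transcript, and Rpl6-207 had an adjusted p of 0.0993. The block moved no other count by over 1.5 times (37 coding transcripts in place of 38 in WT neurons against astrocytes, and 23 in place of 22 against microglia). Over 11 alternatives Rpl10-209 and Rpl6-207 kept an adjusted p of at most 0.05 in 5 each, and Rpl12-207, Rpl30-203 and Rpsa-203 in 3 each. Library totals in place of TMM moved the median of all features by 0.196 and 0.179 in WT neurons against astrocytes and microglia, by -0.124 in KIN against WT astrocytes and by -0.225 in microglia, where the median of the other transcripts changed from 0.07 to -0.16. Depth limits what can be seen in glial coding transcripts, of which few passed the filter.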
